A study of Mus musculus with 6 samples.

Results

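The genes of the mitochondrial ribosomal proteins were followed in poly(A)-selected RNA from hearts of aged female mice after pressure overload surgery or sham surgery. Members were the rows of the deposited expression table whose mouse gene symbol starts with Mrpl or Mrps followed by a digit. This gave 78 genes of 22298, of which 49 carry an Mrpl symbol (large subunit) and 29 an Mrps symbol (small subunit). The rule went by symbol only, though it was set with earlier results of these data known. The TAC group held 3 hearts of wild-type females aged 18 months after TAC surgery, and the sham group held 3 hearts of wild-type females of the same age after sham surgery. TAC, transverse aortic constriction, is an operation that narrows the aortic arch, so that the left ventricle pumps against a raised pressure. The sources used here do not state the strain, the part of the heart, the time from surgery to sampling, pooling, or that each heart came from a separate animal. The p-values therefore describe the spread among these 6 libraries, which may be technical in part.

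Mitochondria keep a small genome and translate its messages on ribosomes of their own. Every protein of these ribosomes is encoded in the nucleus, made in the cytosol and imported, while the ribosomal RNA is transcribed inside the organelle. Some of the proteins descend from bacterial ribosomal proteins and others were added in mitochondria. The products of mitochondrial translation are core subunits of the respiratory chain and ATP synthase, on which heart muscle depends for its ATP. Symbols and structure differ for a few members. Mrps30 and Mrps18a sit in the large subunit of the mammalian mitoribosome despite their names, and Mrps36 is known as a component of the 2-oxoglutarate dehydrogenase complex of the citric acid cycle. By descent, 48 members are relatives of bacterial ribosomal proteins and 29 are specific to mitochondria, with Mrps36 in neither class.

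Sequence upstream of the genes was read because promoters of nuclear genes for mitochondrial proteins are known for sites of NRF1, of ETS factors such as GABP, and of YY1. RefSeq start sites on GRCm38.p6 gave a window of 250 bases before and 50 after the start for 69 of the 78 members. The letters searched, on both strands, were CCGGAAG for ETS factors, GCGCA and GCGC with 1 base of any kind between them for NRF1, and AA and ATGGCGGC with 1 base of any kind between them for YY1. No match of one motif overlapped a match of another in these windows. The ETS letters were in 25 members (36.2%), against 17.1% of the 10706 tested genes with a window. The NRF1 letters were in 13 members (18.8%), against 9.88% of those genes, and the YY1 letters in 7 members (10.1%), against 2.34%. At least one of the motifs was in 38 members (55.1%), against 26.7% of those genes. The median GC content of the windows was 58.3% in members and 60.7% in the tested genes. Up to 3 matches per motif that lie before the start and outside annotated exons are shown here, in the members with the lowest log2 fold changes among those that have one, with the match in capitals and the gene's strand read 5′ to 3′. In Mrpl12 the match is read on the opposite strand. Each member was taken by its match nearest the start among those that met these conditions, and in no member was that a YY1 match.
Mrpl34, ETS letters, chr8:71464864-71464920, plus strand: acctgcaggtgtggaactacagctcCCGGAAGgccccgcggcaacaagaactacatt
Mrpl43, ETS letters, chr19:45006443-45006479, minus strand: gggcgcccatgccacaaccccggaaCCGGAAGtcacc
Mrpl58, ETS letters, chr11:115403710-115403751, plus strand: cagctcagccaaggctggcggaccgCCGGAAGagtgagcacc
Mrpl9, NRF1 letters, chr3:94443283-94443317, plus strand: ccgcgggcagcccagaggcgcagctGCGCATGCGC
Mrpl45, NRF1 letters, chr11:97315653-97315712, plus strand: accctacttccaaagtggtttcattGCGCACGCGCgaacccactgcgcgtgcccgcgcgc
Mrpl12, NRF1 letters, chr11:120484531-120484590, plus strand: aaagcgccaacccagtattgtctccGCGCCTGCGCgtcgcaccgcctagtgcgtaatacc
The matches describe the letters only. Members with any of the motifs had a median log2 fold change, TAC over sham, of -0.13, and the 31 members with a window and no match had a median of -0.16.

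The libraries held 19747265 to 27549838 estimated counts, of which 25.7% to 30.5% fell on the 13 mitochondrially encoded genes. The members together took 0.339%, 0.276% and 0.310% of the counts in TAC replicates 1, 2 and 3, against 0.351%, 0.346% and 0.340% in sham replicates 1, 2 and 3. Over all genes, TAC replicate 1 stood apart from the other TAC libraries: on the first principal component (54.6% of the variance) it lay at -0.65, TAC replicates 2 and 3 at -48.9 and -53.5, and the sham libraries between 31.4 and 37.3. All 10 cardiomyocyte markers were detected, with summed levels of 61976, 54196 and 42180 CPM in TAC replicates 1, 2 and 3, against 60043 to 61950 CPM in sham. CPM is a count scaled to library size, after scaling of the libraries to each other (TMM factors). The smallest count of any member in any library was 255, so all 78 passed the filter on low counts and were tested.

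No mitochondrial ribosomal protein gene passed the test between TAC and sham hearts. Of 78 members, 0 were higher and 0 lower at an adjusted p under 0.05, the threshold used throughout (edgeR quasi-likelihood test, adjusted over all 13708 genes tested). Of all genes, 1.66% passed (1.12% higher and 0.540% lower in TAC). The smallest adjusted p of a member in edgeR was 0.0867. At an adjusted p under 0.10 there were 2 members, both lower in TAC (Mrpl53 and Mrpl4), where 3.49% of all genes were lower by that rule. At an unadjusted p under 0.05 there were 12 members, 2 with a positive and 10 with a negative log2 fold change. This is 15.4% of members, where 25.6% of all genes had such a p (16.3% positive and 9.26% negative). DESeq2's Wald test called 3 members lower and 0 higher, where it called 4.37% of all genes lower and 7.83% higher. The 3 were Mrpl53, Mrpl39 and Mrpl4. The TAC and sham values did not overlap in 17 members (21.8%), with TAC below sham in 13 and above it in 4. Among all genes 31.5% did not overlap, with TAC below sham in 13.1% and above it in 18.4%.

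The members nonetheless sat mostly on one side. The log2 fold change, TAC over sham, was negative in 63 of 78 members (80.8%), against 47.1% of all genes tested. The median over members was -0.15, a TAC level of 90.2% of sham, and the median over all genes was 0.03. The values were small. In 75 of the 78 members the log2 fold change was under 0.5 in size, and the 95% interval included 0 in 66. The half-width of that interval, which is not adjusted for the number of genes, had a median of 0.32. In whole-tissue RNA, fewer cells of a type and less RNA per cell cannot be told apart.

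**Figure D1:**
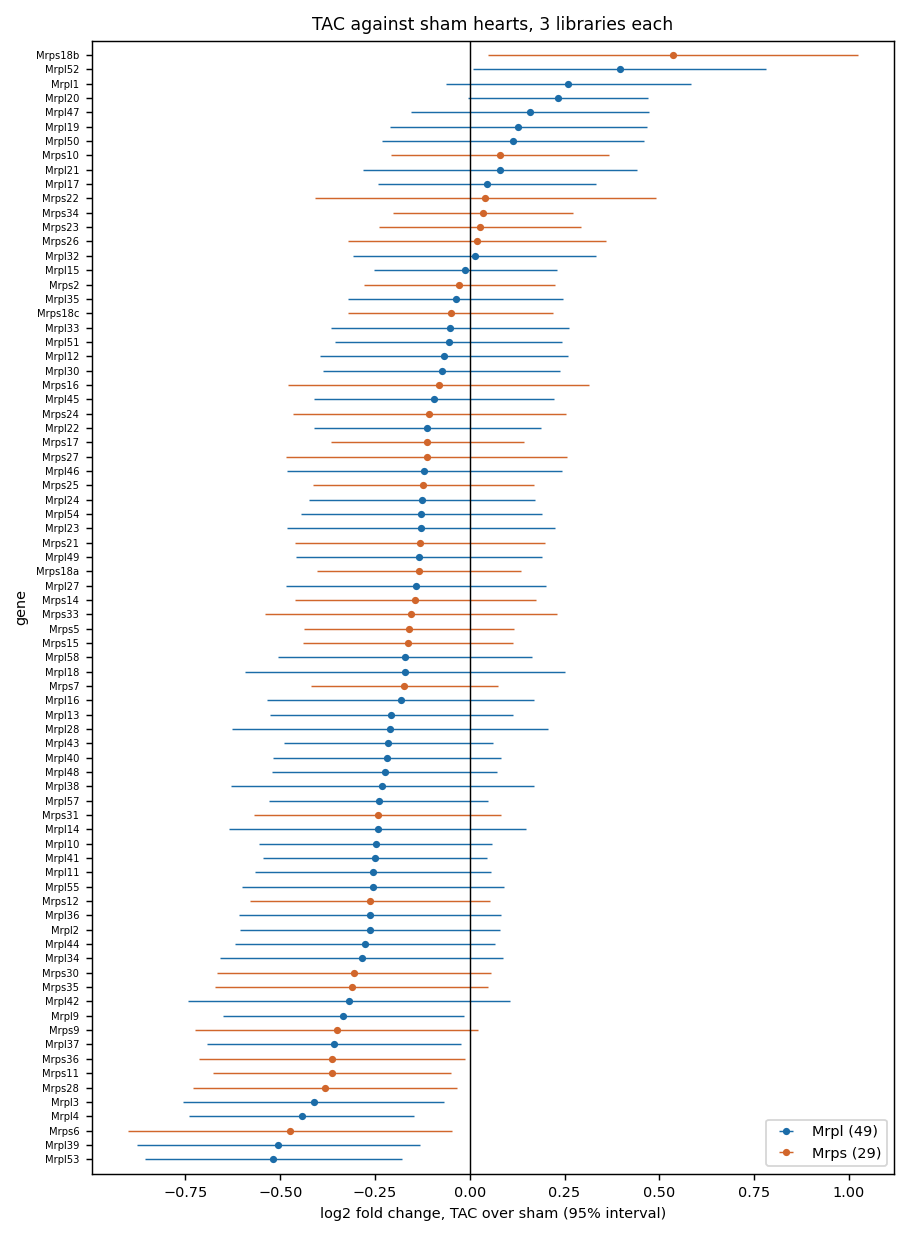
Log2 fold change of each of the 78 members, TAC over sham hearts (x axis), with genes ordered by it (y axis). Points are the fitted values and bars their 95% intervals, with 3 libraries per group. Most points lie left of 0, and 66 intervals cross it.

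Large and small subunit genes had similar values. Of 49 Mrpl genes 40 had a negative log2 fold change, with a median of -0.17. Of 29 Mrps genes 23 were negative, with a median of -0.13. Placing genes by structure in place of symbol left 51 large and 26 small subunit genes with medians of -0.17 and -0.13. The summed FPKM of large subunit genes (fragments scaled to transcript length and library size, a level per length) was 2125, 1711 and 1891 in TAC replicates 1, 2 and 3, against 2211, 2188 and 2113 in sham replicates 1, 2 and 3. For small subunit genes the sums were 981, 833 and 933 FPKM in the TAC replicates, against 1028, 1001 and 1002 FPKM in the sham replicates. All sums of TAC replicates 2 and 3 lay below all sham sums in both subunits, while TAC replicate 1 lay within the sham range for the large subunit and below it for the small. On CPM sums that last placement turned, with the small subunit at 1167 CPM in TAC replicate 1, against 1098 to 1149 CPM in sham. The ratio of the large to the small sum was 2.17, 2.05 and 2.03 in TAC replicates 1, 2 and 3, against 2.15, 2.19 and 2.11 in the sham replicates. Its mean was 2.08 ± 0.075 in TAC and 2.15 ± 0.039 in sham (SD, n = 3 each), and the groups overlapped. Members of bacterial descent had a median log2 fold change of -0.14 and mitochondria-specific members one of -0.17.

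The pattern across libraries was shared by most members. TAC replicate 1 held the highest of the 3 TAC values in 64 of 78 members (82.1%, against 34.5% of all genes), and TAC replicate 2 the lowest in 52 (66.7%, against 29.8%). Compared with the sham mean of each gene, the median member stood at 0.03 in TAC replicate 1, -0.33 in TAC replicate 2 and -0.23 in TAC replicate 3 (log2 units). The sham replicates stood at 0.02, 0.02 and -0.04. In the same libraries the median of all genes lay between -0.01 and 0.05. TAC replicates 2 and 3 were both below every sham value in 53 members (67.9%, against 26.1% of all genes), while TAC replicate 1 was below every sham value in 14 (17.9%, against 28.3%). The spread between TAC libraries was the wider one, with a median SD of 15.5% of the mean over members, against 5.36% between sham libraries.

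**Figure D2:**
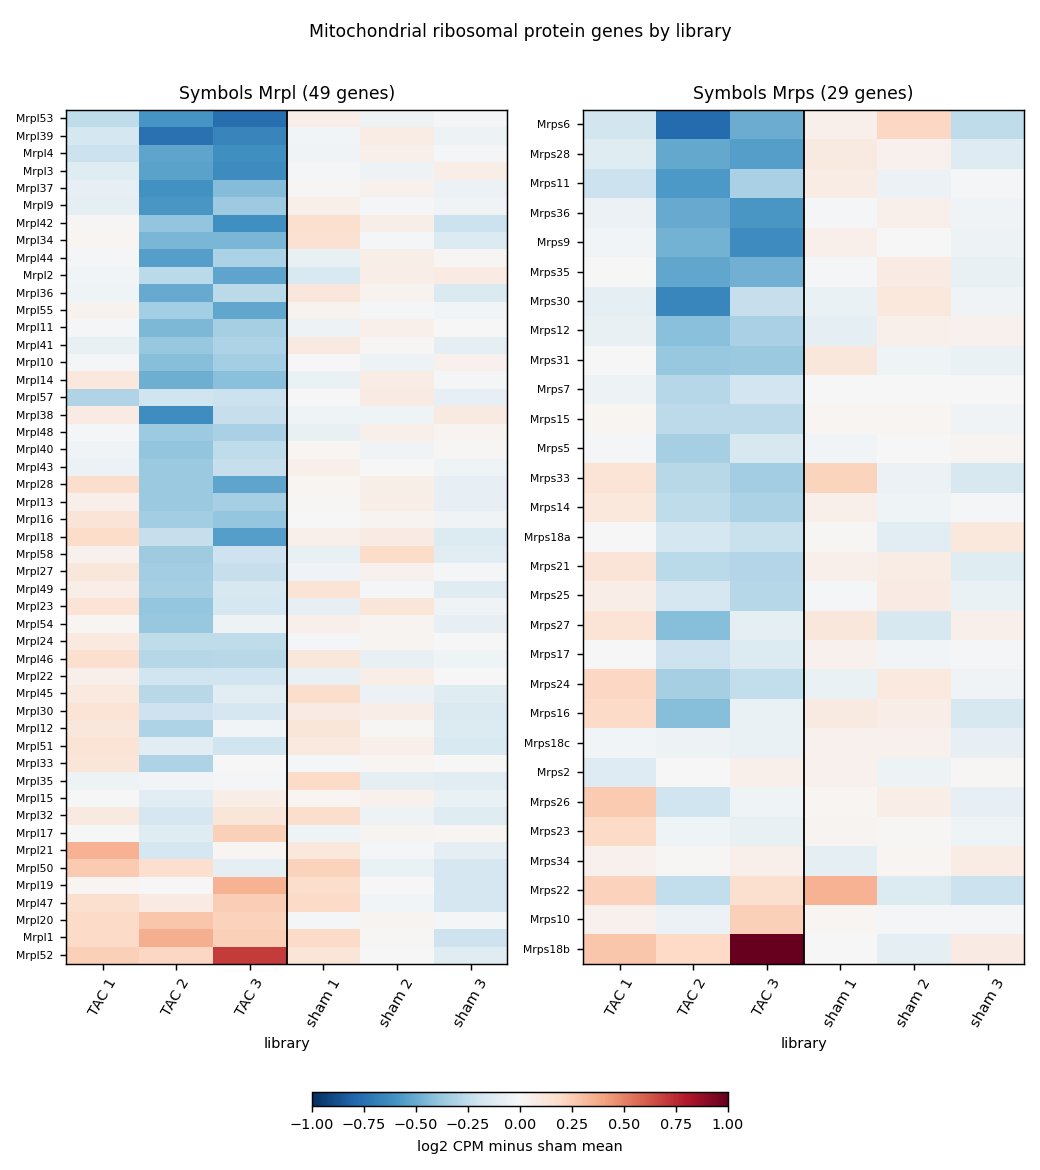
Level of each member in each library (columns) as log2 CPM minus the gene's sham mean, with Mrpl genes left and Mrps genes right, ordered by log2 fold change. TAC 2 and TAC 3 are blue (below the sham mean) for most genes, with medians of -0.33 and -0.23, and TAC 1 is near white, with a median of 0.03.

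The test outcome for the members changed when TAC replicate 1 was left out, which leaves TAC replicates 2 and 3 against the sham libraries. The library left out is the one that stood apart within TAC, so the calls rest on a narrower spread. For the members they also rest on larger differences from sham. Their median log2 fold change was -0.30 there and -0.15 in the fit of all libraries. For Mrpl39 the SE was 0.10 there and 0.16 in the fit of all libraries. Without that library 24 of the 78 members (30.8%) were lower and 0 higher (edgeR, adjusted over all genes). Of all genes, 10.01% were lower and 13.2% higher in that fit, against 0.540% and 1.12% in the fit of all libraries. Of the 24, 17 were Mrpl genes (Mrpl3, Mrpl4, Mrpl9, Mrpl10, Mrpl11, Mrpl13, Mrpl14, Mrpl16, Mrpl28, Mrpl34, Mrpl37, Mrpl39, Mrpl42, Mrpl44, Mrpl48, Mrpl53 and Mrpl55) and 7 Mrps genes (Mrps6, Mrps9, Mrps11, Mrps28, Mrps31, Mrps35 and Mrps36). Mrpl39 had the smallest adjusted p (0.00755, log2 fold change -0.72, SE 0.10), followed by Mrpl4 (0.0110, -0.58) and Mrpl53 (0.0110, -0.68). The median log2 fold change there was -0.30 over all members, -0.30 over large and -0.27 over small subunit genes. In each fit without another library 0 members passed. For cell type markers, the genes passing, higher or lower are those of the fit of all libraries, and calls without TAC replicate 1 are not given. Summed cardiomyocyte markers were below every sham sum in TAC replicates 2 and 3, as given above, with 0 of 10 passing. Their sum was lowest in TAC replicate 3, whereas most members were lowest in TAC replicate 2. Its largest parts were Myh6, Actc1 and Mb. Of the 10, 7 had a negative log2 fold change and 3 a positive one (Actc1, Tnnt2 and Ttn). In TAC replicate 2 these 3 lay above every sham value, while Myh6 was at 14267 CPM, against 19105 to 20273 CPM in sham. Summed neutrophil markers (5 genes, none at 0 in all libraries) were 20.03, 89.2 and 115 CPM in TAC replicates 1, 2 and 3, against 2.43 to 6.67 CPM in sham, with 2 of the 4 tested higher. Summed macrophage and monocyte markers (6 genes) were 626, 939 and 860 CPM in TAC, against 491 to 568 CPM in sham, with 2 of 6 higher. Summed fibroblast markers (7 genes) were 3207, 3101 and 2130 CPM in TAC, against 4223 to 4719 CPM in sham, with 0 of 7 passing. The largest part of this sum was Gsn, at 1719, 1339 and 725 CPM in TAC, against 2573 to 2852 CPM in sham. All 7 had a negative log2 fold change, that of Pdgfra being -0.05, and apart from Gsn and Tcf21 their groups overlapped. Summed endothelial markers were 1627 to 1855 CPM in TAC, against 1805 to 1984 CPM in sham, with 1 of 6 lower. Smooth muscle and pericyte markers summed to 817 to 986 CPM in TAC, against 988 to 1220 CPM in sham, with 0 of 5 passing. Lymphocyte markers summed to 6.59 to 26.9 CPM in TAC, against 3.59 to 4.66 CPM in sham, with 0 of 4 passing. Red cell markers summed to 1925 to 3484 CPM in TAC, against 938 to 1634 CPM in sham, with 2 of 6 higher. The part of cell composition in the members' values was not tested.

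Among large subunit genes, the lowest log2 fold changes were those of Mrpl53, Mrpl39, Mrpl4 and Mrpl3. Mrpl53 (chromosome 6, 83109040 to 83109939 on the plus strand in GRCm38), a mitochondria-specific protein, had 32.7, 25.9 and 23.1 CPM in TAC replicates 1, 2 and 3, against 40.7, 37.6 and 38.6 CPM in sham replicates 1, 2 and 3. Every TAC value lay below every sham value. The fitted log2 difference was -0.52 (SE 0.15), with an edgeR adjusted p of 0.0867. Its counts were fractional in all libraries and an exon of Gm42688 overlaps it. How its reads were assigned is not stated, so its values are uncertain. Mrpl39 (chromosome 16, 84717576 to 84735742, minus strand), also mitochondria-specific, had 43.3, 29.2 and 30.9 CPM in the TAC replicates, against 48.0, 51.6 and 47.1 CPM in the sham replicates. The groups did not overlap, with TAC replicate 1 much nearer to the sham values than the others (log2 fold change -0.50, SE 0.16, edgeR adjusted p = 0.107). Mrpl4 (chromosome 9, 21002738 to 21008839, plus strand), whose bacterial relative reaches into the exit tunnel of the ribosome, had 62.5, 50.4 and 47.5 CPM in TAC, against 71.0, 75.2 and 72.0 CPM in sham. Its groups did not overlap either (log2 fold change -0.44, SE 0.13, edgeR adjusted p = 0.0901). Mrpl3, whose bacterial relative lies near the peptidyl transferase centre and whose variants in people are linked to cardiomyopathy, had 90.5, 67.6 and 63.4 CPM in TAC, against 96.8, 94.9 and 103 CPM in sham. Its groups did not overlap (-0.41, SE 0.15, edgeR adjusted p = 0.138).

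**Figure D3:**
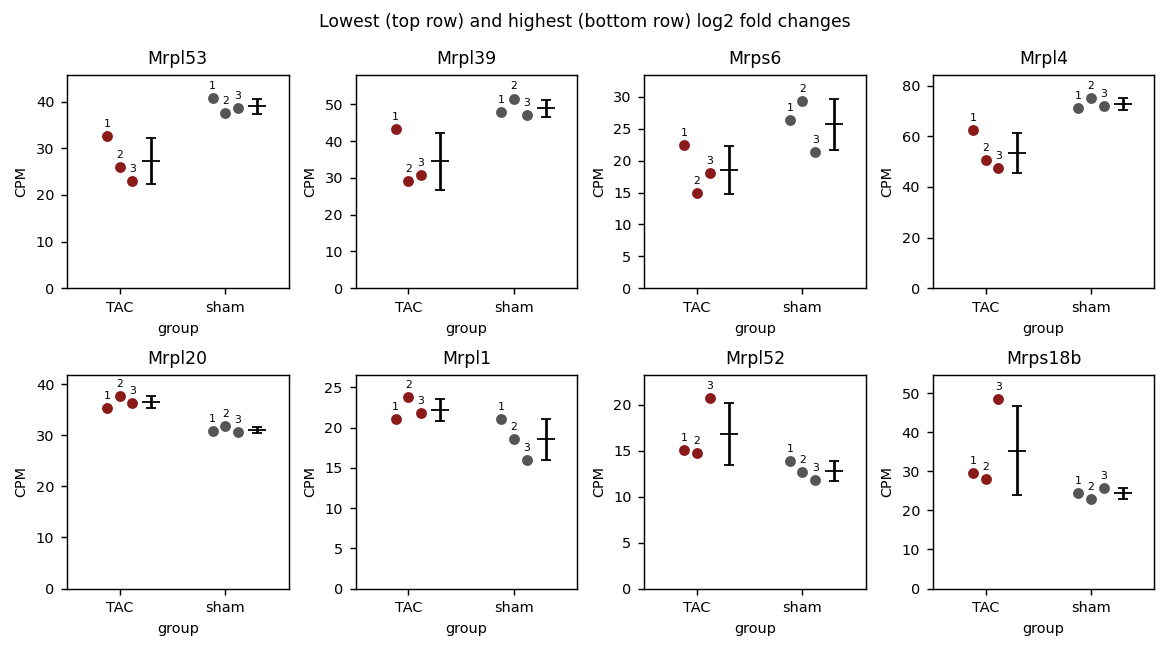
CPM of the 4 members with the lowest (top) and the 4 with the highest (bottom) log2 fold changes, TAC left of sham. Points are libraries, numbered by replicate, and bars are mean ± SD (n = 3). Mrps6 is the only one of the 8 in which the groups overlap, and the Mrps18b mean in TAC rests on replicate 3, at 48.4 CPM.

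At the other end of the large subunit were Mrpl52, Mrpl1, Mrpl20 and Mrpl47. Mrpl52, a mitochondria-specific protein, had 15.1, 14.7 and 20.7 CPM in TAC replicates 1, 2 and 3, against 13.9, 12.7 and 11.8 CPM in sham replicates 1, 2 and 3 (log2 fold change 0.39, SE 0.17, edgeR adjusted p = 0.189). Without TAC replicate 3, Mrpl52 was at 0.20. Mrpl1, whose bacterial relative forms the mobile stalk beside the exit site for tRNA, had 21.1, 23.7 and 21.8 CPM in TAC, against 21.0, 18.6 and 16.0 CPM in sham (0.26, SE 0.14, edgeR adjusted p = 0.277). In Mrpl1 the lowest TAC value was just above the highest sham value, and the log2 fold change was 0.16 without sham replicate 3. Mrpl20, whose bacterial relative is needed early in assembly, had 35.4, 37.6 and 36.4 CPM in TAC, against 30.8, 31.7 and 30.6 CPM in sham (0.23, SE 0.10, edgeR adjusted p = 0.204). All TAC values of these 3 genes lay above all sham values. Mrpl47 had a log2 fold change of 0.16 and overlapping groups. Its counts were fractional, and exons of Actl6a and Ndufb5 overlap it.

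The genes of the stalk, which receives the translation factors, had overlapping groups. Mrpl12, the stalk protein that in human cells also binds the mitochondrial RNA polymerase, averaged 128 ± 18.4 CPM in TAC and 134 ± 12.1 CPM in sham (SD, n = 3 each; log2 fold change -0.07, 95% interval -0.40 to 0.26). Mrpl10 and Mrpl11, at the base of the stalk, had log2 fold changes of -0.25 (95% interval -0.56 to 0.06) and -0.26 (-0.57 to 0.06). Mrpl45, which holds the ribosome at the inner membrane, was at -0.09 (-0.41 to 0.22). Mrpl44, which has a fold of the ribonuclease III family and is linked to infantile cardiomyopathy in people, was at -0.28 (-0.62 to 0.07). Mrpl58, a peptidyl-tRNA hydrolase that frees stalled ribosomes, was at -0.17 (-0.50 to 0.16). None of these intervals excluded 0, and each allows a TAC level well below that of sham. Without TAC replicate 1, Mrpl10, Mrpl11 and Mrpl44 passed as lower in TAC, at -0.40, -0.40 and -0.45 (edgeR adjusted p of 0.0302, 0.0305 and 0.0299). In that fit Mrpl12, Mrpl45 and Mrpl58 did not pass, at -0.18, -0.21 and -0.30.

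Among small subunit genes, Mrps6, Mrps28, Mrps11 and Mrps36 had the lowest log2 fold changes. Mrps6 had 22.5, 14.98 and 18.0 CPM in TAC replicates 1, 2 and 3, against 26.3, 29.4 and 21.4 CPM in sham replicates 1, 2 and 3. TAC replicate 1 lay above sham replicate 3, so the groups overlapped (log2 fold change -0.47, SE 0.19, edgeR adjusted p = 0.161). Its counts were partly fractional, and it overlaps exons of Slc5a3. Mrps28 averaged 21.0 ± 3.63 CPM in TAC and 27.4 ± 2.11 CPM in sham (SD, n = 3 each) with overlapping groups and a log2 fold change of -0.38. Mrps11, of the platform of the small subunit, averaged 14.8 ± 1.82 CPM in TAC and 19.0 ± 0.884 CPM in sham without overlap, at -0.36. Mrps11 and Mrpl46 lie head to head on chromosome 7 with overlapping exons, and Mrpl46 was at -0.12 with overlapping groups. Mrps36, the dehydrogenase component, had 52.7, 38.7 and 36.5 CPM in TAC replicates 1, 2 and 3, against 54.1, 56.9 and 53.5 CPM in sham replicates 1, 2 and 3, with no overlap (-0.36, SE 0.15, edgeR adjusted p = 0.185). Its lowest value was in TAC replicate 3, and without TAC replicate 1 it was among the members that passed (-0.56, edgeR adjusted p = 0.0128). Mrps12, whose bacterial relative lies at the decoding centre, was at -0.26, and Mrps5, whose bacterial relative lies at the entry of the mRNA channel, at -0.16, both with overlapping groups.

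The mouse genome holds 3 relatives of the bacterial protein S18, placed at different sites of the ribosome. Mrps18b (chromosome 17, 35910379 to 35916389, minus strand), in the small subunit, had the highest log2 fold change of all members, with 29.5, 27.96 and 48.4 CPM in TAC replicates 1, 2 and 3, against 24.4, 22.9 and 25.8 CPM in sham replicates 1, 2 and 3. All TAC values lay above all sham values, but replicate 3 stood well above the other TAC libraries, and the log2 fold change was 0.54 with an SE of 0.21 (adjusted p in edgeR of 0.164). Without TAC replicate 3 it was 0.22. Mrps18c, in the small subunit, averaged 14.8 ± 0.242 CPM in TAC and 15.3 ± 0.760 CPM in sham (SD, n = 3 each; log2 fold change -0.05, 95% interval -0.32 to 0.22). Mrps18a, in the large subunit, averaged 40.1 ± 3.20 CPM in TAC and 44.0 ± 3.30 CPM in sham (-0.13, -0.40 to 0.14). The differences between the paralogs' log2 fold changes were not tested. Mrps30, the other large subunit protein with an Mrps symbol, was at -0.31 without overlap between groups. Mrps10, Mrps22 and Mrps34 were the next highest after Mrps18b among Mrps genes, at 0.08, 0.04 and 0.03. Mrps22 and Mrps34 are linked to mitochondrial disease in people, Mrps22 also to cardiomyopathy. The groups overlapped in all 3. Counts of Mrps34 were fractional, and exons of Mapk8ip3 and Nme3 overlap it.

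Levels per length spanned a 60.4-fold range among members, from 4.30 to 259 FPKM as a mean of the 6 libraries, with a median of 30.7 FPKM. Mrpl42 was the most abundant, with 275, 217 and 200 FPKM in TAC replicates 1, 2 and 3, against 316, 295 and 254 FPKM in sham replicates 1, 2 and 3. TAC replicate 1 lay within the sham range and the others below it (log2 fold change -0.32, SE 0.185, edgeR adjusted p = 0.311). Without TAC replicate 1 it passed, at -0.52 (edgeR adjusted p = 0.0483). Mrpl30 followed with 170 ± 16.5 FPKM in TAC and 182 ± 10.8 FPKM in sham (SD, n = 3 each). Next were Mrps23 at 114 ± 3.81 FPKM in TAC and 113 ± 7.64 FPKM in sham, and Mrps21 at 106 ± 13.3 FPKM in TAC and 118 ± 7.47 FPKM in sham. The range of Mrpl30 over the 6 libraries lay below that of Mrpl42 and above that of Mrps23. The ranges of Mrps23 and Mrps21 overlapped, as did those of Mrps21 and Mrpl12. The lowest were Mrpl57 at 3.95 ± 0.327 FPKM in TAC and 4.65 ± 0.168 FPKM in sham, then Mrps26, Mrpl47, Mrpl19 and Mrps25, with means over all libraries of 4.82, 5.56, 5.70 and 6.37 FPKM. The ranges over the 6 libraries of neighbours in this low end overlapped. Apart from Mrpl57, these genes had fractional counts in some or all libraries, so their levels are uncertain. Exons of Gcfc2 overlap Mrpl19, and exons of Nr2c2 overlap Mrps25. The median member was at 32.1 FPKM in the large and 26.0 FPKM in the small subunit. These levels depend on the transcript lengths the authors used for FPKM.

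In the fit of all libraries, genes that act with the mitoribosome did not pass either. Results without TAC replicate 1 are not given for these genes, for genes of mitochondrial transcription or for the mitochondrially encoded genes. Of the 5 mitoribosome proteins with other symbols, 0 passed and all 5 had a negative log2 fold change (median -0.14). Dap3, a GTP-binding protein of the small subunit, had 59.4, 44.5 and 46.4 CPM in TAC replicates 1, 2 and 3, against 75.8, 78.6 and 76.8 CPM in sham replicates 1, 2 and 3. The groups did not overlap. Its log2 fold change, -0.62 with an SE of 0.13 (edgeR adjusted p = 0.0599), was below that of every member by symbol. Aurkaip1, another small subunit protein, was at -0.27 without overlap. Of 27 genes of ribosome assembly and ribosomal RNA modification 0 passed and 21 were negative (median -0.14). Rbfa, which helps the small subunit mature, was at -0.42 (SE 0.13, adjusted p = 0.101) and the ribosomal RNA methyltransferase gene Mrm3 at 0.41 (SE 0.15, adjusted p = 0.148). Of 16 translation factors and related genes 0 passed and 11 were negative (median -0.15). Tufm, the elongation factor that brings tRNA to the ribosome, had 174, 111 and 120 CPM in TAC, against 195, 189 and 193 CPM in sham (-0.51, SE 0.18, edgeR adjusted p = 0.125). Mtrf1l, a release factor, was at 0.63 (SE 0.20, adjusted p = 0.102), with all TAC values above all sham values.

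The transcription side had no common direction. Of 12 genes of mitochondrial transcription and its nuclear regulators 0 passed, 6 were negative and 6 positive (median 0.03). Polrmt, the mitochondrial RNA polymerase, was at -0.27 (SE 0.11, edgeR adjusted p = 0.178) and Gabpa, the DNA-binding part of the ETS factor GABP, at 0.36 (SE 0.14, adjusted p = 0.173). Both had no overlap between groups. The 13 mitochondrially encoded proteins, the messages these ribosomes translate, had positive log2 fold changes in 11 genes (median 0.42), and 0 passed. The highest were mt-Nd4l, at 1099, 1369 and 1134 CPM in TAC replicates 1, 2 and 3, against 775, 665 and 592 CPM in sham replicates 1, 2 and 3 (0.83, SE 0.16, edgeR adjusted p = 0.0508), and mt-Atp8, at 0.77 (SE 0.17, adjusted p = 0.0627). Both overlap a longer neighbour in the mitochondrial genome, so their reads cannot be fully told from it. The most abundant of the 13, mt-Co1 and mt-Co3, had the negative values, at -0.15 and -0.01. The summed level of the 13 overlapped between groups, at 253539 to 319941 CPM in TAC, against 250778 to 294414 CPM in sham. Median deviations from the sham mean over the 13 were 0.45, 0.57 and 0.19 in TAC replicates 1, 2 and 3, against 0.15, -0.02 and -0.17 in the sham replicates. TAC replicate 2 had the highest median for the mitochondrially encoded genes and the lowest for the ribosomal protein genes, whereas TAC replicate 1 was above the sham mean for the encoded genes and at it for the ribosomal protein genes. The libraries were selected for poly(A) tails, which most mitochondrial messages carry, in varying length. The difference between the lists was not tested.

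**Figure D4:**
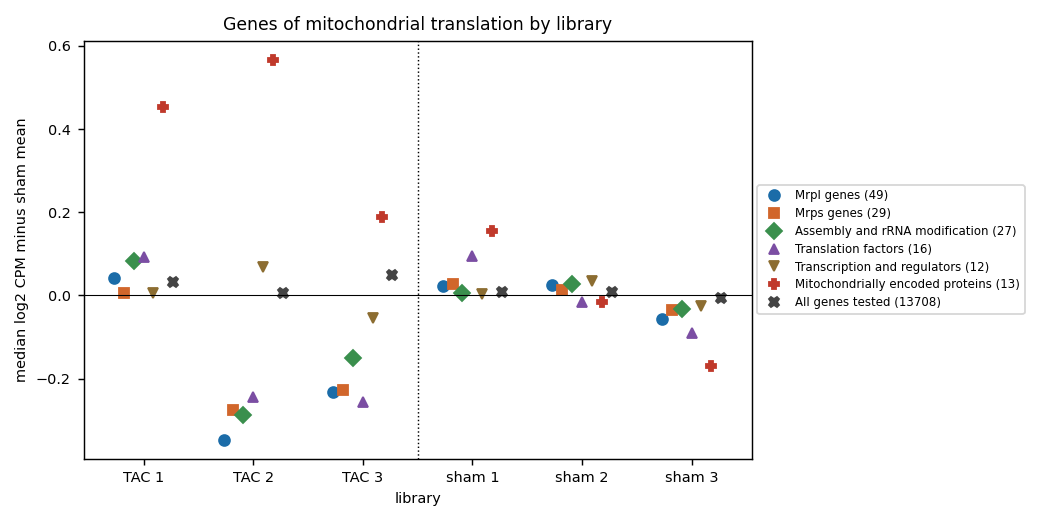
Median log2 CPM minus the sham mean in each library for the Mrpl and Mrps genes, for lists of genes that act with them and for all genes tested (number of genes in brackets). In TAC 2 the mitochondrially encoded proteins stand at 0.57 and the Mrpl genes at -0.35, and all genes tested stay between -0.01 and 0.05.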

How the data were processed

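Per the file headers, the deposited table gives an estimated count and an FPKM value per gene and library, made by the authors. The submitters' processing notes list HISAT2, DESeq2, StringTie 1.3.1 and Bowtie2 2.2.8 and the build GRCm38, without roles or annotation release. Of counts above 0, 88.7% to 89.7% per library were exactly whole. Symbols and coordinates came from GENCODE annotation of the same build (22255 of 22298 identifiers matched). Counts were fractional in 13 members, and exons of another coding gene overlap 23.

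The rounded counts entered edgeR 4.0.16 under R 4.3.3 (filterByExpr, minimum count 10, TMM, glmQLFit and glmQLFTest, two-sided, Benjamini-Hochberg over 13708 genes), with no covariate. A standard error is the size of the log2 fold change divided by the square root of F, and the 95% interval uses the test's degrees of freedom. The script was tested on simulated data. Libraries of one group differed by more than counting noise, with a chi-square over its degrees of freedom of 11.8 to 18.2 for sham pairs and 76.4 to 101 for TAC pairs. Members, lists and tests were chosen with earlier results of these data known. Named members were, per subunit, the 4 highest and 4 lowest log2 fold changes and the 3 most and 2 least abundant, plus 16 fixed genes. In the other lists they were the 2 genes with the smallest p where none passed. Mrpl34, Mrpl43 and Mrpl9 are named for their upstream sequence, Mrpl46 for its neighbour, Mrpl19 for its place in the order of levels, and others as passing without TAC replicate 1, all outside this rule. Also outside it, mt-Co1 and mt-Co3 are named for their level, and some cell type markers for their direction or their part in a sum. Upstream sequence came from RefSeq on GRCm38.p6, by symbol, with the motif letters matched exactly. Alternatives were other scaling factors and filters, DESeq2 1.42.0, limma 3.58.1 on log2 FPKM plus 1 or 0.1, a replicate block, and each library left out.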

Additional observations from a re-analysis of the deposited data

How the results depend on the processing

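Over all genes, 153 were higher and 74 lower in TAC. Without 1 library the counts ranged from 4 to 1837 higher and from 8 to 1392 lower, the largest without TAC replicate 1 and the smallest without sham replicate 3. By the Wald test of DESeq2, 1071 passed as higher and 598 as lower, and an adjusted p under 0.10 in edgeR gave 1131 and 479. On log2 FPKM, limma-trend called 59 higher with a pseudocount of 1 and 64 with 0.1. Members lower in TAC were 0 in edgeR, 3 by DESeq2 and 2 at an adjusted p under 0.10 (3.49% of all genes), and 0 to 24 without 1 library, with 24 without TAC replicate 1. The median log2 fold change was -0.17 for large and -0.13 for small subunit genes. Without 1 library it ranged from -0.30 to -0.11 and from -0.27 to -0.11, with the lowest of each without TAC replicate 1, and it stayed negative in all alternatives run. Among 34 named members, 28 kept their sign in all 15 alternatives. The others were near 0. The log2 fold change with 1 library left out was -0.18 to 0.012 for Mrpl12, -0.021 to 0.11 for Mrps10, -0.068 to 0.21 for Mrps22, -0.077 to 0.061 for Mrps23, -0.14 to 0.087 for Mrps26 and -0.033 to 0.070 for Mrps34. Mrps26 was also at -0.0062 with DESeq2 size factors and by the Wald test, -0.0065 with upper-quartile factors and without mitochondrially encoded genes, and -0.0045 without a filter. The cause was not tested. With the replicate number as a block, 48 genes were higher and 26 lower, and 0 members passed. Deviations of same-numbered libraries correlated at -0.11 to 0.01 and not every library did best with its own number, so the numbers were not taken to pair samples. Placing subunits by structure or summing CPM, both chosen after seeing the data, gave a ratio of large to small sums, TAC over sham, of 0.955 and 0.969 (0.969 by symbol and FPKM). With 3 libraries per group, members at log2 fold changes of -0.52 (Mrpl53) and 0.54 (Mrps18b) did not pass the adjusted threshold.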
